A study of Homo sapiens with 22 samples.

Results

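SR proteins and heterogeneous nuclear ribonucleoproteins (hnRNPs) are RNA-binding proteins that help decide which exons the spliceosome joins. Genes of both families were taken from the mRNA-seq tables of MOLM-13 and NB4 cells by their symbols, SRSF or HNRNP followed only by letters or digits. Of the 20411 genes in each table, 38 matched, 12 of them SR and 26 hnRNP genes. In each cell line 33 of these 38 had a mean level of at least 1 RPKM (reads scaled by gene length and by library total) over 6 libraries, 11 SR and 22 hnRNP genes, and entered the tests. The same 33 genes passed in both lines.

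MOLM-13 is an acute myeloid leukemia (AML) line and NB4 is an acute promyelocytic leukemia line, and both carry the label of wild-type genotype. Each line received FP54 at 2 μM, or the solvent DMSO, for 48 hours, with 3 libraries per treatment and line. FP54 is a degrader that brings the von Hippel-Lindau ubiquitin ligase to FTO, an enzyme that removes the methyl group of N6-methyladenosine (m6A) from mRNA. The 12 libraries are 12 of 22 samples in the series, and the other 10 were not analysed here. No source used here says that the 3 libraries of a group came from separate cultures, so the p-values measure only the spread between these libraries.

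SR proteins carry an RNA recognition motif and a tail rich in arginine and serine. They mostly bind exonic enhancers and favour inclusion of the exon, while many hnRNPs bind silencers and oppose it. Several of these proteins also control their own mRNA, by promoting a splice form with a premature stop codon that is then degraded, and the gene-level values used here do not separate such forms from the coding ones. m6A can open a local RNA hairpin so that HNRNPC reaches its binding site, and HNRNPA2B1 has been described as a nuclear reader of m6A marks.

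Of the 33 tested members, 30 had a promoter sequence in the RefSeq table (GRCh38.p14, 300 bases that span the start site). An E-box with the letters CACGTG, a palindrome that MYC and related factors bind, was present in the promoters of 7 of these 30, against 8.89% of the promoters, of the same length, of 15270 genes in the tables. These 15270 genes were not limited to a mean of at least 1 RPKM, as the members were, so the sets are unlike for each motif. The 7 genes were HNRNPM, HNRNPA3, HNRNPD, HNRNPDL, HNRNPH2, HNRNPH3 and HNRNPUL1. Windows of 30 bases around the E-box (in capitals) are shown, 5′ to 3′ on the strand of the gene, for the 3 of these genes that fell in at least 1 line and for a neighbour of HNRNPD that did not:
HNRNPM: gttgcgtcgggtCACGTGggcgcgcaggcg
HNRNPA3: cggaaaacgcgtCACGTGacgactggcccc
HNRNPD: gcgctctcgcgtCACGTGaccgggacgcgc
HNRNPDL: agaggcccggggCACGTGcagaaaggagcc
They lie at chr19:8444921-8444950 (+), chr2:177212711-177212740 (+), chr4:82374001-82374030 (-) and chr4:82430364-82430393 (-). Their E-boxes are centred at positions -39, -68, -24 and -153 from the RefSeq start site. Of the other motifs searched on both strands, with overlaps between motifs kept, CCAAT was present in 15 of the 30 promoters (36.62% of all), CCGGAAG in 5 (14.45% of all) and the palindromic NRF1 site in 0 (1.72% of all). The median log2 fold change of the 7 members with the E-box was -0.48 in MOLM-13 and -0.37 in NB4 cells, and that of the 23 members with a promoter without it was -0.26 and -0.31. A match of letters is a description of the promoter and not evidence that a factor was bound.

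Reads on genes, recovered from the RPKM and the gene lengths, totalled 16299703 to 17346902 per library in MOLM-13 DMSO, 5829738 to 19191054 in MOLM-13 FP54, 20654077 to 22344266 in NB4 DMSO and 10595654 to 13071322 in NB4 FP54. FP54 replicate 2 was the shallowest MOLM-13 library, and every NB4 FP54 library was shallower than every NB4 DMSO library. The tested member with the fewest reads had at least 69 reads in every MOLM-13 library (SRSF8) and at least 146 in every NB4 library (HNRNPA1L2). On the first principal component of the 33 members, with 78.9% of the variance in MOLM-13 cells, DMSO replicate 2 (-0.38) lay nearer to the FP54 libraries than the other DMSO libraries (-1.67 and -2.21), and FP54 replicate 1 (2.92) lay apart from the other FP54 libraries (0.44 and 0.91). Of 8 myeloid leukaemia markers, 8 were above 1 RPKM in MOLM-13 and 7 in NB4 cells (not ELANE). T, B, erythroid, NK and megakaryocyte markers were each under 1 RPKM on average in MOLM-13 cells. In NB4 cells CD3D, CD79A, CD79B and ITGA2B were above it, and the sums of the T cell markers (6.14 to 7.11 RPKM with DMSO, 11.2 to 11.7 with FP54), of the B cell markers (4.20 to 6.30 and 7.13 to 7.32) and of the megakaryocyte markers (1.59 to 2.47 and 13.8 to 15.2) were higher with FP54. The promyelocytic markers summed to 2150 to 2411 RPKM with DMSO and 1115 to 1183 with FP54 in NB4 cells, and the myeloid leukaemia markers to 2214 to 2465 and 1247 to 1315. In MOLM-13 cells the myeloid leukaemia markers were at 1137 to 1265 RPKM with DMSO and 1408 to 1706 with FP54. The part of these shifts in the results was not tested. In bulk samples, fewer cells of a type and less RNA per cell cannot be told apart. The mRNA of FTO was at 1.012 ± 0.0767 RPKM with DMSO and 1.0105 ± 0.118 with FP54 in MOLM-13 cells (SD, n = 3), and at 2.73 ± 0.180 and 2.03 ± 0.0782 in NB4 cells. FP54 acts on the protein, which these libraries do not measure.

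Several of the splicing factor mRNAs fell in each line at the study's cutoff, and none rose in either. A member was said to fall or rise when it changed by 0.5 or more on the log2 scale at a limma p below 0.01 before adjustment, the cutoff of the study's methods, and adjusted p-values are Benjamini-Hochberg values of the same limma fit over all genes tested in that line. Fold changes are on the log2(RPKM + 0.1) scale. In MOLM-13 cells, 6 of 33 members fell and 0 rose. These 6 are 18.2% of the members, while 9.04% of the 9710 genes tested fell and 9.3% rose. In NB4 cells, 7 of 33 members fell (21.2%) and 0 rose, against 10.7% and 18.6% of 9853 genes. These backgrounds include genes at low levels, while all 33 members had a mean of at least 5 RPKM in NB4 cells. Of the 6415 NB4 genes at that level, 838 fell (13.1%) and 789 rose, beside 7 and 0 of the members. In MOLM-13 cells 6 of the 32 members at that level fell, against 9.22% of 6073 genes. Of the MOLM-13 libraries that stood apart, leaving out DMSO replicate 2 gave 8 members that fell (12.4% of all genes). Leaving out FP54 replicate 1 gave 4 (5.19% of all genes), and FP54 replicate 2 gave 8 (8.81% of all genes). In NB4 cells the members that fell were 6 under quantile normalization (13.8% of all genes) and 10 with median-ratio scaling (13.5% of all genes). HNRNPM and HNRNPA2B1 fell in both lines, HNRNPA3, SRSF3, HNRNPA1L3 and HNRNPA1 passed the cutoff in MOLM-13 cells alone, SRSF1, SRSF4, SRSF7, HNRNPD and HNRNPAB in NB4 cells alone, and 22 members in neither. HNRNPM and HNRNPA2B1 are 6.06% of the members, and 3.2% of the 8849 genes tested in both lines fell in both. They are 33.3% of the members called in MOLM-13 cells, where the genes that fell in both lines were 32.2% of all genes called, and 28.6% of those called in NB4 cells, against 26.95%. All genes called include any not tested in the other line, which lowers these shares, while every member was tested in both. With that limit, the overlap of the members was near these shares.

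At an adjusted p below 0.05 without a minimum fold, 7 members were lower in MOLM-13 cells (9.32% of all genes) and 0 higher (9.84% of all genes). Without FP54 replicate 1 the lower members in MOLM-13 cells were 1, and without DMSO replicate 3 they were 2. The share of all genes at the adjusted p is not given here for these fits. At the study's cutoff, 5.19% and 4.76% of all genes fell in them, against 9.04% with all libraries. In NB4 cells 19 were lower, 57.6% of the members against 22% of all genes, and 1 was higher (29.8% of all genes). The sign alone was negative for 29 of 33 members in MOLM-13 (49.7% of all genes) and for 30 of 33 in NB4 cells (44.2% of all genes), of which 27 were the same in both. Under quantile normalization the negative signs in NB4 cells were 26 of 33, and HNRNPK, HNRNPH1, HNRNPH3 and HNRNPUL1 changed sign there, as SRSF5 did with median-ratio scaling. The median log2 fold change of the members was -0.33 in MOLM-13 and -0.35 in NB4 cells, beside medians of 0.0033 and 0.07 over all genes tested. Over the NB4 genes with a mean of at least 5 RPKM the median was -0.024. Quantile normalization moved the NB4 median of all genes from 0.07 to -0.03 and that of the members to -0.20, so that the members lay 0.17 below all genes in place of 0.42. The 3 libraries of each treatment did not overlap for 17 members in MOLM-13 cells, all lower with FP54 (17% of all genes, and 20.2% were higher without overlap). In NB4 cells they did not overlap for 24 that were lower (26.2% of all genes) and 2 that were higher (34.3% of all genes).

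**Figure D1:**
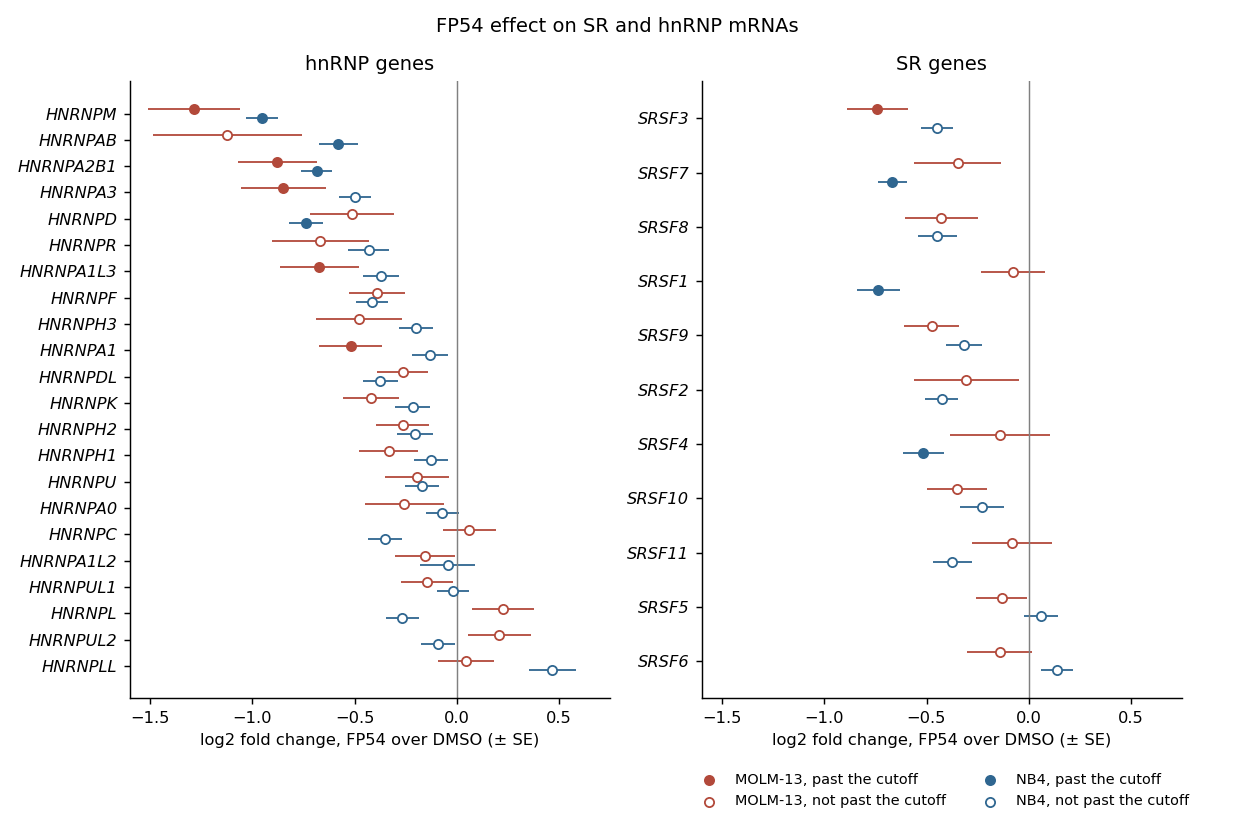
Log2 fold change of FP54 over DMSO with its standard error for the 22 hnRNP and 11 SR genes tested, in MOLM-13 (red) and NB4 cells (blue), with 3 libraries per treatment. Filled points mark the 6 members in MOLM-13 and the 7 in NB4 cells past the cutoff, which all lie to the left of 0, with HNRNPM the farthest in both lines.

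HNRNPM, a regulator of alternative exons that binds GU-rich RNA, had the largest decrease of the 33 members in both lines. In MOLM-13 cells its level was 127, 124 and 159 RPKM in DMSO replicates 1 to 3 and 38.9, 77.2 and 57.6 in FP54 replicates 1 to 3. In NB4 cells it was 217, 237 and 244 RPKM with DMSO and 123, 121 and 116 with FP54. Every FP54 library lay below every DMSO library of its line. The mean with FP54 was 42.3% of that with DMSO in MOLM-13 cells (log2 fold change -1.29, SE 0.23, adjusted p = 0.0062) and 51.6% in NB4 cells (-0.95, SE 0.080, adjusted p = 7.11e-06). The call held in every MOLM-13 alternative. The gene lies at chr19:8444767-8489114 on hg38, and none of its exonic sequence was shared with another coding gene.

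The members that act at m6A sites had unlike values, with HNRNPA2B1 called in both lines and HNRNPC in neither. HNRNPA2B1, at chr7:26171151-26201529, stood at 143, 120 and 155 RPKM in the DMSO libraries and 55.9, 86.7 and 88.3 in the FP54 libraries of MOLM-13 cells, and at 262, 267 and 284 RPKM against 164, 171 and 171 in NB4 cells. It fell by 0.88 on the log2 scale in MOLM-13 (SE 0.19, adjusted p = 0.0139) and by 0.68 in NB4 cells (SE 0.076, adjusted p = 4.64e-05), without overlap in either. The exons of HNRNPA2B1 share 12.49% of their bases with NFE2L3 and CBX3 on the other strand, and whether the counting used strand is not given in the sources used here.

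HNRNPC, at chr14:21209136-21269494, binds uridine runs and shields cryptic exons. It was at 126, 137 and 134 RPKM with DMSO and 132, 154 and 130 with FP54 in MOLM-13 cells. There the groups overlapped and the log2 fold change was 0.06 (SE 0.13, adjusted p = 0.765), turning to -0.015 without FP54 replicate 2. In NB4 cells it was at 118, 124 and 138 RPKM with DMSO and 100.0, 96.6 and 100.3 with FP54. Those groups did not overlap, and the log2 fold change of -0.35 (SE 0.084, adjusted p = 0.00512) passed the adjusted p but not the minimum fold. Under quantile normalization it was -0.16 (adjusted p = 0.119). The ratio of HNRNPA2B1 to HNRNPC RPKM was 1.14, 0.878 and 1.15 with DMSO and 0.423, 0.563 and 0.681 with FP54 in MOLM-13 cells. In NB4 cells it was 2.23, 2.15 and 2.06 with DMSO and 1.64, 1.77 and 1.71 with FP54. The ratio was lower in every FP54 library than in any DMSO library of the same line, although an exact permutation test of 3 against 3 libraries cannot give a two-sided p below 0.1.

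**Figure D2:**
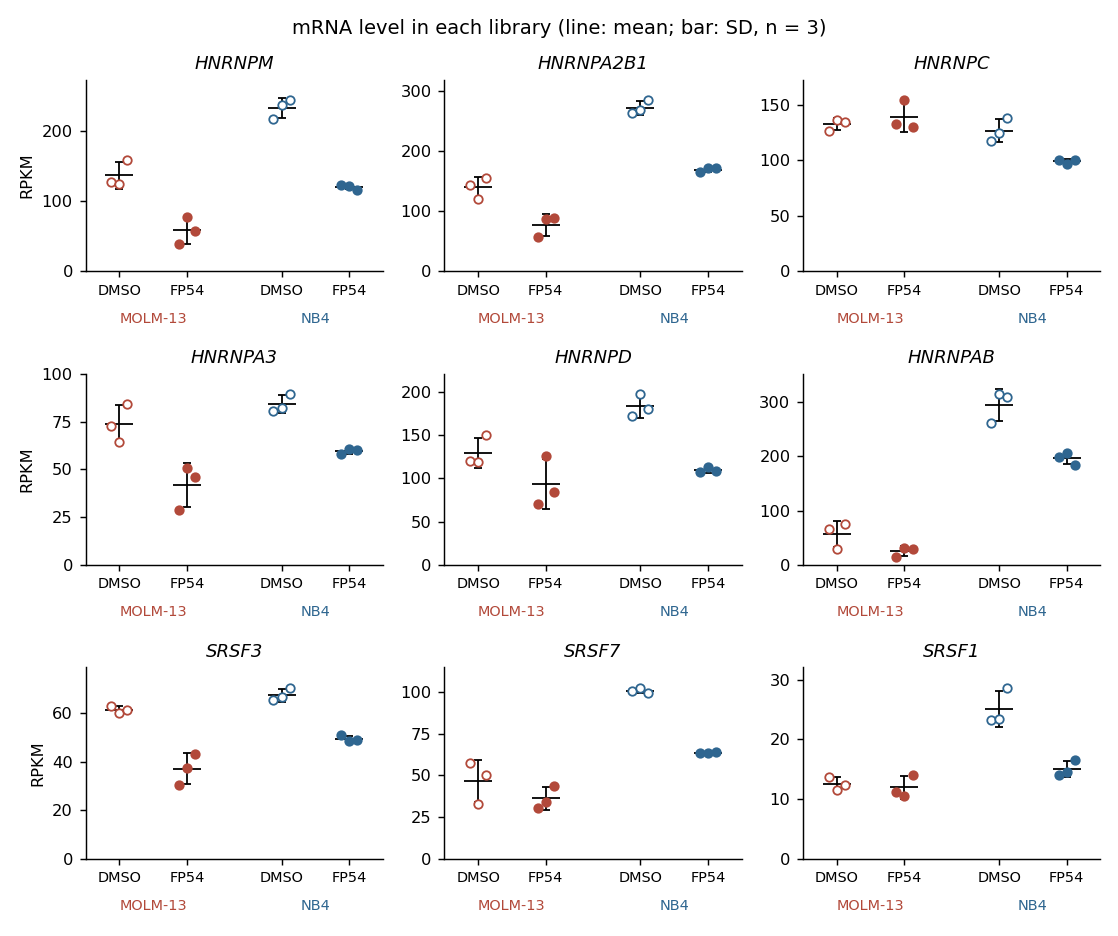
RPKM of 9 members in each library (points), with the mean (line) and SD (bar, n = 3) for DMSO (open) and FP54 (filled) in MOLM-13 (red) and NB4 cells (blue), on a linear axis from 0. The treatments are apart for HNRNPM, HNRNPA2B1, HNRNPA3 and SRSF3 in both lines, and overlap in MOLM-13 cells for HNRNPC, HNRNPD, HNRNPAB, SRSF7 and SRSF1.

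The A/B-type hnRNPs, abundant proteins that coat nascent transcripts and mostly repress exons, also include HNRNPA3, HNRNPA1 and its near copies. HNRNPA3 stood at 72.7, 64.1 and 84.4 RPKM with DMSO and 28.9, 50.8 and 45.8 with FP54 in MOLM-13 cells, and at 80.7, 82.3 and 89.5 RPKM against 58.1, 60.4 and 60.1 in NB4 cells. Its log2 fold change was -0.85 (SE 0.21, adjusted p = 0.0213) in MOLM-13 and -0.50 (SE 0.078, adjusted p = 0.000429) in NB4 cells, where -0.497 missed the minimum fold. Of the exonic bases of HNRNPA3, at chr2:177212694-177223959, 53.65% lie over NFE2L2 on the other strand. NFE2L2 itself was at 8.70 ± 0.712 RPKM with DMSO and 8.73 ± 1.44 with FP54 in MOLM-13 cells, and at 7.96 ± 1.22 and 9.68 ± 0.335 in NB4 cells (SD, n = 3).

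HNRNPA1, a repressor of exon inclusion and the member with the highest mean DMSO level in both lines, was at 315, 361 and 361 RPKM with DMSO and 205, 284 and 238 with FP54 in MOLM-13 cells. It fell there (log2 fold change -0.52, SE 0.15, adjusted p = 0.0424), with no overlap between the treatments. The call was lost without DMSO replicate 2 (-0.49), DMSO replicate 3 (-0.49), FP54 replicate 1 (-0.41) or FP54 replicate 3 (-0.51). NB4 cells had 318, 366 and 355 RPKM with DMSO and 339, 305 and 303 with FP54, with overlap and a log2 fold change of -0.13 (SE 0.089, adjusted p = 0.237). HNRNPA1L3, a near copy, was at 31.8, 29.3 and 35.8 RPKM with DMSO and 15.4, 26.6 and 19.9 with FP54 in MOLM-13 cells, and fell (-0.67, SE 0.19, adjusted p = 0.0368), a call lost without DMSO replicate 1 (-0.68), DMSO replicate 3 (-0.60), FP54 replicate 1 (-0.48) or FP54 replicate 3 (-0.67). NB4 cells had 18.4, 19.9 and 18.1 RPKM against 14.4, 15.5 and 13.6, and its log2 fold change was -0.37 (SE 0.089, adjusted p = 0.00549). As 42.33% of its 80-base words occur in other genes, chiefly HNRNPA1, reads of these genes cannot be told apart with certainty. The same holds for HNRNPA1L2, where the share is 100.0% and the log2 fold change was -0.16 in MOLM-13 and -0.04 in NB4 cells.

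HNRNPAB, HNRNPD and HNRNPDL are related proteins that bind AU-rich RNA, and HNRNPD (AUF1) is known for control of mRNA decay. HNRNPAB was at 65.2, 28.9 and 75.1 RPKM with DMSO and 14.6, 31.3 and 29.7 with FP54 in MOLM-13 cells. DMSO replicate 2 lay among the FP54 libraries, and the log2 fold change of -1.12 (SE 0.37, adjusted p = 0.0558) passed neither threshold. In the same libraries MYC was at 56.5, 13.8 and 40.2 RPKM with DMSO and 5.91, 11.8 and 18.8 with FP54, also with DMSO replicate 2 in the range of FP54. The log2 fold change of MYC was -1.52 in MOLM-13 (limma adjusted p = 0.0567) and -0.94 in NB4 cells (limma adjusted p = 1.62e-05). The promoter of HNRNPAB held no CACGTG, and a link between the 2 genes was not tested. Without DMSO replicate 2, HNRNPAB passed the cutoff with a log2 fold change of -1.55. In NB4 cells HNRNPAB was at 262, 315 and 310 RPKM with DMSO and 199.5, 207 and 185 with FP54, and fell without overlap (-0.58, SE 0.095, adjusted p = 0.000564).

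HNRNPD, at chr4:82352498-82374503, was at 171, 197 and 180 RPKM with DMSO and 107, 114 and 108 with FP54 in NB4 cells, and fell (-0.74, SE 0.082, adjusted p = 4.57e-05). In MOLM-13 cells it was at 120, 119 and 150 RPKM with DMSO and 70.3, 126 and 83.7 with FP54. FP54 replicate 2, the shallow library, lay among the DMSO libraries, and the log2 fold change was -0.51 (SE 0.21, adjusted p = 0.107). Without that library it was -0.75 and passed the cutoff. HNRNPDL had log2 fold changes of -0.26 (SE 0.13, adjusted p = 0.161) in MOLM-13 and -0.37 (SE 0.084, adjusted p = 0.00388) in NB4 cells, the latter -0.17 under quantile normalization (adjusted p = 0.0946). HNRNPA0, a kinase-regulated binder of AU-rich mRNA, had -0.26 (adjusted p = 0.374) and -0.07 (adjusted p = 0.485).

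HNRNPK, which binds cytidine-rich RNA and whose gene is lost in some AML, had the second highest hnRNP level in MOLM-13 cells. It was at 197, 217 and 216 RPKM with DMSO and 139, 174 and 160 with FP54 there, without overlap, and the log2 fold change of -0.42 (SE 0.14, adjusted p = 0.057) passed neither threshold. In NB4 cells it was at 195, 174 and 203 RPKM against 170, 159 and 162, with a log2 fold change of -0.22 (SE 0.085, adjusted p = 0.0537) that became 0.015 under quantile normalization. HNRNPF, HNRNPH1, HNRNPH2 and HNRNPH3 bind runs of guanosine. Their log2 fold changes were -0.39, -0.33, -0.26 and -0.48 in MOLM-13 cells, and -0.42, -0.13, -0.20 and -0.20 in NB4 cells. Of these values only that of HNRNPF in NB4 cells passed the adjusted p (0.00138), which it lost under quantile normalization (-0.20, adjusted p = 0.0543). The NB4 values of HNRNPH1 and HNRNPH3 became 0.03 and 0.01 under quantile normalization.

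HNRNPL and HNRNPLL are paralogs that bind CA-rich RNA, and HNRNPLL is known for the switch of CD45 splice forms in lymphocytes. HNRNPL was at 9.59, 8.37 and 8.995 RPKM with DMSO and 12.1, 9.01 and 10.7 with FP54 in MOLM-13 cells (log2 fold change 0.23, SE 0.15, adjusted p = 0.321). NB4 cells had 17.4, 17.8 and 18.6 RPKM against 15.1, 15.2 and 14.4 (-0.27, SE 0.082, adjusted p = 0.0191, and 0.0931 without FP54 replicate 3). HNRNPLL was at 17.4, 21.4 and 17.9 RPKM with DMSO and 20.1, 19.4 and 18.9 with FP54 in MOLM-13 cells (0.05, SE 0.14, adjusted p = 0.839). In NB4 cells HNRNPLL was at 12.5, 10.3 and 13.7 RPKM with DMSO and 15.4, 17.3 and 17.5 with FP54, the only member with an adjusted p below 0.05 in the upward direction (0.47, SE 0.11, adjusted p = 0.00619), and it stayed under the minimum fold.

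The remaining hnRNP members did not pass the cutoff in either line. HNRNPR, an mRNA-binding protein closely related to SYNCRIP, had log2 fold changes of -0.67 (SE 0.24, adjusted p = 0.0728) in MOLM-13 and -0.43 (SE 0.10, adjusted p = 0.00471) in NB4 cells. HNRNPU, a scaffold of nuclear RNA and chromatin, had -0.19 and -0.17, and HNRNPUL1 had -0.15 and -0.02, the latter 0.14 under quantile normalization. HNRNPUL2 was at 7.54, 6.05 and 7.71 RPKM with DMSO and 7.47, 8.42 and 8.71 with FP54 in MOLM-13 cells, and at 16.6, 16.3 and 15.8 RPKM against 14.5, 16.01 and 15.3 in NB4 cells, with overlap in both. Its exons share 44.27% of their bases with a readthrough gene on the same strand, HNRNPUL2-BSCL2. HNRNPCL1, HNRNPCL2, HNRNPCL3 and HNRNPCL4, close relatives of HNRNPC, were listed at 0 in the 12 libraries, and 42.37 to 95.12% of their 80-base words occur in other genes.

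Among the SR genes, 1 of 11 fell in MOLM-13 cells, a share near the 9.04% of all genes, and 3 of 11 in NB4 cells (10.7% of all genes), and none rose. The sign was negative for 11 of 11 in MOLM-13 and 9 of 11 in NB4 cells, with medians of -0.30 and -0.43. SRSF3, the smallest SR protein, which also links mRNA processing to export, was at 63.1, 60.0 and 61.3 RPKM with DMSO and 30.6, 37.4 and 43.3 with FP54 in MOLM-13 cells. It fell (-0.74, SE 0.15, adjusted p = 0.0107), and the highest FP54 library lay well under the lowest DMSO library. NB4 cells had 65.2, 66.6 and 70.4 RPKM against 50.8, 48.3 and 48.9, with no overlap, and its log2 fold change of -0.45 (SE 0.076, adjusted p = 0.000703) missed the minimum fold.

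SRSF7, the relative of SRSF3 with a zinc knuckle, was at 101, 102 and 99.2 RPKM with DMSO and 63.2, 63.3 and 63.7 with FP54 in NB4 cells, and fell (-0.67, SE 0.072, adjusted p = 3.75e-05). In MOLM-13 cells it was at 57.3, 32.9 and 50.3 RPKM with DMSO and 30.6, 34.2 and 43.8 with FP54. DMSO replicate 2 again lay among the FP54 libraries, and the log2 fold change was -0.35 (SE 0.21, adjusted p = 0.275). SRSF4, a large SR protein, fell in NB4 cells, from 38.8, 45.1 and 34.7 RPKM to 27.9, 27.4 and 27.1 (-0.51, SE 0.10, adjusted p = 0.00168), and missed the minimum fold without DMSO replicate 2 (-0.42) or under quantile normalization (-0.41). In MOLM-13 cells its libraries overlapped (37.7, 50.6 and 51.8 RPKM with DMSO and 39.9, 62.1 and 29.6 with FP54).

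SRSF1, the prototype SR protein and a proto-oncoprotein, had unlike values in the lines, and the difference, tested further on, passed with all libraries but not in 5 of the 6 fits that left out 1 library per line. In NB4 cells it was at 23.2, 23.5 and 28.6 RPKM with DMSO and 14.0, 14.5 and 16.4 with FP54, and fell (-0.74, SE 0.11, adjusted p = 0.000268). In MOLM-13 cells it was at 13.7, 11.5 and 12.4 RPKM with DMSO and 11.2, 10.5 and 14.1 with FP54, with overlap and a log2 fold change of -0.08 (SE 0.16, adjusted p = 0.754) that became 0.0063 without FP54 replicate 2. SRSF1 lies at chr17:58000919-58007346, and 32.69% of its exonic bases are shared with a gene on the same strand.

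SRSF9 passed the adjusted p in both lines but not the minimum fold, with log2 fold changes of -0.48 (adjusted p = 0.0368) in MOLM-13 and -0.31 (adjusted p = 0.0119) in NB4 cells. Without DMSO replicate 3 the MOLM-13 adjusted p was 0.164, and in NB4 cells it was 0.232 under quantile normalization (-0.11) and 0.0683 without FP54 replicate 3. Of the exonic bases of SRSF9, 43.59% are shared with GATC on the other strand. SRSF2, the SR gene most often mutated in myeloid neoplasms, its relative SRSF8 and SRSF11 passed the adjusted p in NB4 cells alone. Their log2 fold changes were -0.43, -0.45 and -0.37 in NB4 and -0.30, -0.43 and -0.08 in MOLM-13 cells. The NB4 value of SRSF11 was -0.21 under quantile normalization (adjusted p = 0.0749). SRSF10, a splicing repressor when dephosphorylated, had -0.35 and -0.23 in MOLM-13 and NB4 cells, and passed neither threshold. SRSF5 and SRSF6 had -0.13 and -0.14 in MOLM-13 cells, while their NB4 values were 0.06 (adjusted p = 0.554, and -0.0030 with median-ratio scaling) and 0.14 (adjusted p = 0.16). SRSF8, with the lowest mean of the tested members in MOLM-13 cells (4.23 RPKM with DMSO and 3.11 with FP54), was above the minimum of 1 RPKM. SRSF12 lay under it, with 1 to 3 reads per library in MOLM-13 and 1 to 6 in NB4 cells.

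The summed mRNA level of both families was lower with FP54. The hnRNP sum was 1852 ± 130 RPKM with DMSO and 1351 ± 187 with FP54 in MOLM-13 cells, and 2490 ± 118 and 1873 ± 26.04 in NB4 cells (SD, n = 3). The SR sum was 499 ± 38.7 and 420 ± 38.2 RPKM in MOLM-13 cells, and 641 ± 14.6 and 500.4 ± 4.21 in NB4 cells. None of these sums overlapped between treatments, but for SR genes in MOLM-13 cells the lowest DMSO library (454 RPKM) and the highest FP54 library (451 RPKM) nearly met. Together the members made up 1.03 ± 0.0600% of all RPKM with DMSO and 0.787 ± 0.104% with FP54 in MOLM-13 cells, and 1.29 ± 0.0618% and 1.05 ± 0.00738% in NB4 cells. RPKM is relative to the library total, so that a change in total mRNA per cell is not seen.

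Within the hnRNP sum, the MOLM-13 share of HNRNPM was 7.37 ± 0.509% with DMSO and 4.21 ± 0.837% with FP54 (SD, n = 3). In NB4 cells it was 9.34 ± 0.147% and 6.41 ± 0.0964%, and neither pair overlapped. The share of HNRNPC was 7.17 ± 0.548% with DMSO and 10.3 ± 0.913% with FP54 in MOLM-13 cells, also without overlap, and 5.08 ± 0.197% and 5.28 ± 0.162% in NB4 cells, with overlap. The share of HNRNPA1 was 18.7 ± 1.63% and 17.9 ± 0.459% in MOLM-13 cells and 13.9 ± 0.654% and 16.9 ± 0.963% in NB4 cells. Within the SR sum, SRSF5 went from 8.92 ± 0.554% to 11.9 ± 0.207% in NB4 cells, where its own level was nearly the same with both treatments (57.2 ± 4.33 and 59.6 ± 1.17 RPKM).

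**Figure D3:**
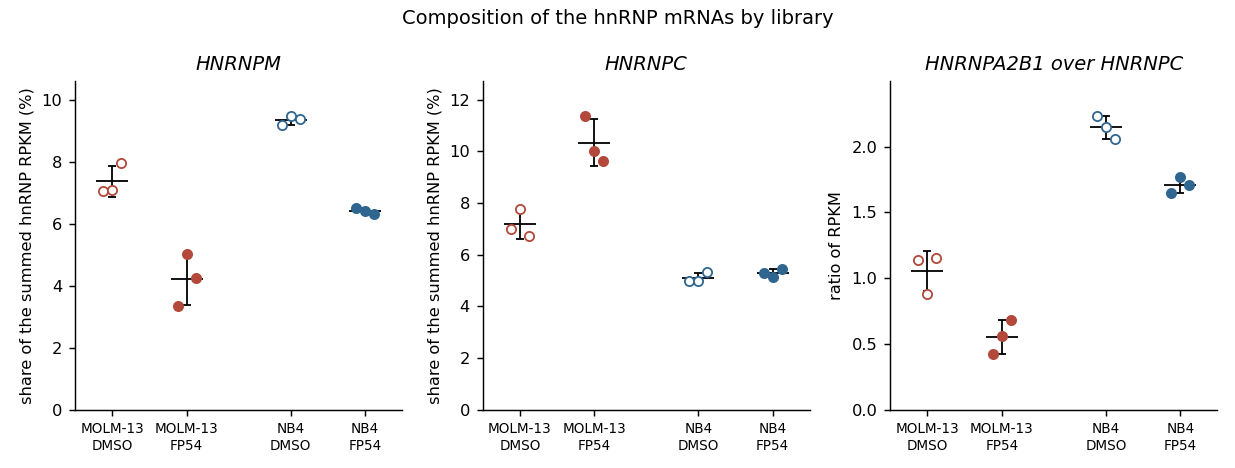
Share of HNRNPM (left) and HNRNPC (middle) in the summed hnRNP RPKM, in percent, and ratio of HNRNPA2B1 to HNRNPC RPKM (right) in each library (points), with mean (line) and SD (bar, n = 3), for DMSO (open) and FP54 (filled). The HNRNPM share and the ratio are lower in every FP54 library of a line than in its DMSO libraries, while the HNRNPC share is higher in the FP54 libraries of MOLM-13 cells and overlaps in NB4 cells.

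The responses of the lines were compared gene by gene, with the difference of the log2 fold changes tested as the interaction term of line and treatment in limma over the 12 libraries. The levels of the lines come from separate tables and were not tested against each other. Of the 33 members, 1 differed at an adjusted p below 0.05, against 14.2% of the 8849 genes tested in both lines (3.75% with the lower value in NB4 cells, as here). This was SRSF1, whose log2 fold change was 0.66 lower in NB4 than in MOLM-13 cells (difference -0.66, SE 0.19, adjusted p = 0.0336). The call was lost in 5 of the 6 fits that left out 1 library per line: without DMSO replicate 2 or 3 or any FP54 replicate, the adjusted p was over 0.05, at most 0.164 (without DMSO replicate 3). The next members by p did not pass, with differences of -0.49 for HNRNPL (SE 0.17, adjusted p = 0.0641), -0.42 for HNRNPC (SE 0.15, adjusted p = 0.0817), 0.42 for HNRNPLL (SE 0.18, adjusted p = 0.135), 0.39 for HNRNPA1 (SE 0.18, adjusted p = 0.183) and -0.30 for HNRNPUL2 (SE 0.17, adjusted p = 0.256). Across the 33 members the log2 fold changes of the lines had a Pearson r of 0.58 and a Spearman rho of 0.51, beside a Pearson r of 0.44 over all genes tested in both. Genes of these families share sequence, so the points are not independent.

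Other genes of the splicing machinery, and genes of related RNA-binding proteins, SR kinases, import receptors and nonsense-mediated decay, were read from 10 lists. Together they held 150 tested genes in MOLM-13 cells, of which 14 fell (9.33%, near the 9.04% of all genes) and 0 rose (9.3% of all genes). In NB4 cells they held 148, of which 37 fell (25.0%, against 10.7% of all genes) and 4 rose (2.703%, against 18.6%). Sm and LSm proteins form the ring around each spliceosomal RNA. Of these, 5 of 15 fell in MOLM-13 (median log2 fold change -0.45) and 10 of 14 in NB4 cells (median -0.62). In MOLM-13 cells SNRPD1 fell from 56.0 ± 12.1 to 26.9 ± 10.7 RPKM (-1.10, adjusted p = 0.0171), and SNRPF (-0.84) and SNRPB (-0.83) fell too. In NB4 cells LSM6 (-0.82), SNRPG (-0.81) and SNRPD1 (-0.79) led the group. The MOLM-13 call of SNRPF was lost without DMSO replicate 3, FP54 replicate 1 or FP54 replicate 3 (lowest size -0.61).

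Counts in the smaller groups are read beside the 9.04% of all genes that fell in MOLM-13 and the 10.7% in NB4 cells. The proteins of U1, the particle that first marks the start of an intron, all fell in NB4 cells, 3 of 3, with SNRPA from 66.7 ± 10.4 to 33.4 ± 2.92 RPKM (-0.99, adjusted p = 6.17e-05), SNRPC at -0.67 and SNRNP70 at -0.56. In MOLM-13 cells 0 of 3 passed (median -0.33). Of the genes of U2 and branch site recognition, 3 of 21 fell in MOLM-13 cells (DDX46 -0.71, SF3B3 -0.56 and SF1 -0.52) and 7 of 21 in NB4 cells, led by DDX46 (-0.84), U2AF1 (-0.82) and SNRPA1 (-0.67). Of the genes of the tri-snRNP, which brings in the catalytic RNAs, 2 of 17 fell in MOLM-13 cells (SNRNP40 -0.81 and TXNL4A -0.54) and 9 of 17 in NB4 cells, led by PPIH (-0.79), SART1 (-0.77) and PRPF3 (-0.77). Of the PRP19 complex and catalytic helicases, 1 of 24 fell in each line, CWC27 (-0.96) in MOLM-13 and XAB2 (-0.52) in NB4 cells. At this cutoff the share of 4.17% lay under that of all genes in both. At an adjusted p below 0.05 without a minimum fold, 10 of 24 were lower in NB4 cells, against 22% of all genes. In MOLM-13 cells 1 of 24 was lower at that threshold (9.32% of all genes). The medians were -0.12 in MOLM-13 and -0.23 in NB4 cells. Of the MOLM-13 calls in this paragraph, each was lost without DMSO replicate 3, and all but CWC27 also without DMSO replicate 1 or FP54 replicate 1. Without DMSO replicate 3 the log2 fold changes were -0.53 for DDX46, -0.55 for SF3B3, -0.47 for SF1, -0.71 for SNRNP40, -0.42 for TXNL4A and -0.86 for CWC27. SF3B3, SF1, SNRNP40 and TXNL4A also lost it without FP54 replicate 2, and DDX46 and TXNL4A without FP54 replicate 3. In NB4 cells SNRNP70 (-0.41) and XAB2 (-0.40) missed the minimum fold without DMSO replicate 2.

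Among 28 other hnRNP-type proteins tested in each line, SYNCRIP, which binds cytoplasmic mRNA and is related to HNRNPR, fell in both lines (-0.93, adjusted p = 0.0268, and -0.55, adjusted p = 0.000663). FUBP1 (-0.70) fell in MOLM-13 cells. In NB4 cells PTBP2 (-0.51) fell, while TIA1 (0.56) and PTBP3 (0.50) rose. In all, 2 of 28 fell in each line (7.14%), under the 9.04% of all genes in MOLM-13 and the 10.7% in NB4 cells. At an adjusted p below 0.05 without a minimum fold, 5 of 28 were lower and 1 higher in MOLM-13 cells (9.32% and 9.84% of all genes). In NB4 cells 7 of 28 were lower and 4 higher at that threshold (22% and 29.8% of all genes). At the cutoff, none rose in MOLM-13 cells (9.3% of all genes) and 2 of 28 in NB4 cells (7.14%, against 18.6%). Of the 20 SR-related proteins, 0 passed in MOLM-13 cells. NB4 cells had 4 that fell (20.0%, against 10.7% of all genes), led by RNPS1 (-0.63), RSRC1 (-0.61) and BUD13 (-0.53). There 1 rose, LUC7L2 (0.51), a share of 5.0% against 18.6% of all genes. SYNCRIP was lost in MOLM-13 cells without DMSO replicate 1, FP54 replicate 1 or FP54 replicate 2 (at the least -0.76), and in NB4 cells without FP54 replicate 1 (-0.49). The NB4 calls of PTBP2, PTBP3, TIA1, LUC7L2 and BUD13 lay near the minimum fold, and each was lost when DMSO replicate 1 (PTBP2, -0.46) or DMSO replicate 2 (PTBP3 0.38, TIA1 0.40, LUC7L2 0.43, BUD13 -0.48) was left out. PTBP2, PTBP3 and TIA1 were lost without FP54 replicate 2 as well, PTBP3, TIA1 and LUC7L2 without FP54 replicate 3, and PTBP3 without DMSO replicate 3.

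**Figure D4:**
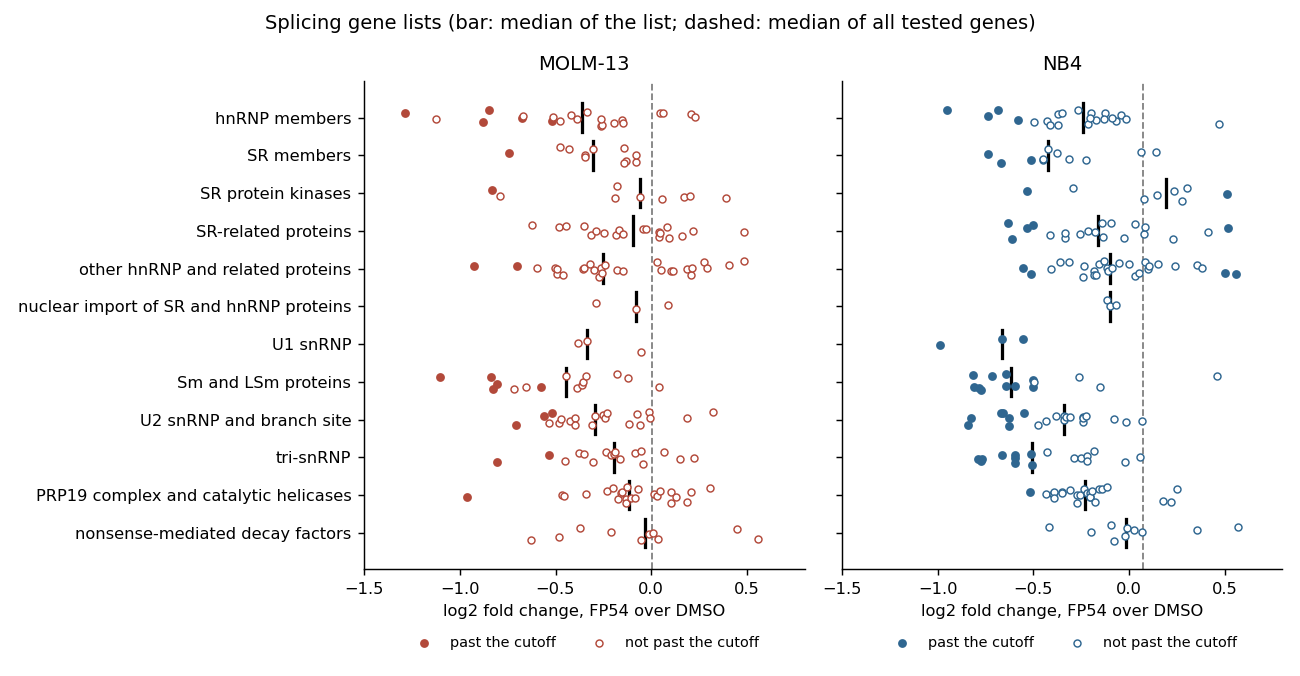
Log2 fold change of FP54 over DMSO for each tested gene (points, filled past the cutoff), in MOLM-13 (left) and NB4 cells (right). The genes are the hnRNP and SR members and those of 10 lists of splicing and related genes. Bars mark list medians and the dashed line the median of all tested genes (0.0033 and 0.07). Of the Sm and LSm genes, 5 of 15 in MOLM-13 and 10 of 14 in NB4 cells lie past the cutoff on the lower side.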

How the data were processed

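The authors trimmed reads with cutadapt 4.8, removed duplicates, aligned them to hg38 with STAR 2.7.11b, counted protein-coding genes with featureCounts 2.0.3 and deposited RPKM per library, 1 table per cell line. The libraries were made from poly(A) RNA with a stranded kit, and the strand setting of the counting is not given in the sources used here. Which lengths and totals entered the RPKM is not stated. Duplicate removal can lower the values of abundant genes.

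The columns were matched to samples by line, treatment and replicate, with 0 columns unused. Reads were recovered from RPKM and GENCODE 44 exonic lengths (20329 genes). At low values 98.7 to 99.3% of them came out whole, within 0.05 of a read. In each line, log2(RPKM + 0.1) was fitted, for genes at a mean RPKM of 1 or more, with limma 3.58.1 (R 4.3.3, eBayes with an intensity trend). The difference between lines was an interaction in 1 model. Tables and figures used Python 3.11.15, pandas 2.3.3, numpy 2.4.6 and matplotlib 3.10.9. The fit was tested on simulated data.

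The members and lists were chosen with earlier results of these data known. Full values are given for HNRNPC and HNRNPA2B1, for up to 6 members per line and direction with the largest change past the cutoff, for the 6 with the smallest interaction p and for the 3 highest in DMSO per line. Of each other list, up to 3 genes per line and direction are named. SRSF4 and other values outside the rule were added after they were seen. Alternatives were pseudocounts of 1 and 0.01, filters, median-ratio and quantile scaling, a replicate block, other eBayes settings, limma-voom on recovered reads, other cutoffs and leaving out each library. The same-numbered libraries of the treatments did not deviate together (correlations of -0.26, -0.13 and -0.06 in MOLM-13, and -0.14, 0.07 and 0.12 in NB4 cells), so the replicate number was not used to pair them. In MOLM-13 cells some libraries of unlike number did: DMSO 1 with FP54 3 (0.59), DMSO 2 with FP54 1 (0.49) and DMSO 3 with FP54 2 (0.47). The fits did not use this.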

Additional observations from a re-analysis of the deposited data

Results flagged for a closer look

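SRSF1 was the only member whose FP54 effect differed between the lines by a test of the difference itself, with a log2 difference (NB4 minus MOLM-13) of -0.66 (SE 0.19, adjusted p = 0.0336, limma interaction over 8849 genes). The level was lower in 3 of 3 FP54 libraries than in every DMSO library of NB4 cells and overlapped in MOLM-13 cells. The adjusted p ranged from 0.0144 to 0.164 over 16 alternatives, and 5 of them, each without 1 library per line, left it over 0.05.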

How the results depend on the processing

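The least covered member tested had 69 reads in its shallowest library. Without the shallow FP54 replicate 2, 8 members fell in MOLM-13 cells in place of 6 (8.81% of all genes), and 12 in place of 7 were lower at the adjusted p. In MOLM-13 cells the members that fell were 2 without a filter on low values (2.6% of all genes, with an adjusted p below 0.05 for 0 members). They were also 2 at the stricter fold of 1 on the log2 scale, with an unadjusted p below 0.05 (3.35% of all genes). In NB4 cells 19 were lower (22% of all genes) and 1 was higher (29.8%) at an adjusted p with no minimum fold. At the stricter fold 0 were lower (1.4% of all genes). At the adjusted p, 15 were lower and 3 higher there under quantile normalization, where HNRNPC, HNRNPDL, HNRNPF, SRSF9 and SRSF11 lost it, and 24 were lower with median-ratio scaling. Shares of all genes at the adjusted p are given for the unaltered fit alone. The other member counts at the adjusted p therefore have no background beside them. At the study's cutoff, 13.8% of all NB4 genes fell under quantile normalization and 13.5% with median-ratio scaling. The NB4 median was -0.25 without a filter, -0.42 with median-ratio scaling and -0.20 with quantile normalization. The members that differed between the lines were 3 of 38 without a filter (4591 of 20411 genes) and 2 of 33 with median-ratio scaling (1322 of 8849 genes). They were 2 of 33 with quantile normalization (1747 of 8849 genes) and 2 of 33 with limma-voom (1330 of 8819 genes).

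Leaving out 1 library gave 4 to 8 members that fell in MOLM-13 cells (4 without DMSO replicate 3 or FP54 replicate 1), and 1 to 12 that were lower at the adjusted p (1 without FP54 replicate 1). In these fits 4.76% to 12.4% of all genes fell at the study's cutoff, and their share at the adjusted p is not given here. In NB4 cells 7 to 8 members fell (10% to 11.1% of all genes) and 0 to 1 rose (1661 to 2165 of all genes). The medians were -0.41 to -0.23 in MOLM-13 and -0.38 to -0.29 in NB4 cells. Between the lines 0 to 1 members differed (628 to 1413 of 8849 genes). HNRNPA1 passed the cutoff in 10 of 18 alternatives and HNRNPA1L3 in 12 of 18. Signs turned in NB4 cells under quantile normalization for HNRNPK (0.015), HNRNPH1 (0.026), HNRNPH3 (0.013) and HNRNPUL1 (0.14), and with median-ratio scaling for SRSF5 (-0.0030). Leaving out 1 library turned signs within ranges of -0.011 to 0.14 for HNRNPLL, -0.015 to 0.11 for HNRNPC, -0.20 to 0.0063 for SRSF1, -0.42 to 0.11 for SRSF4 and -0.32 to 0.047 for SRSF11 in MOLM-13 cells, and of -0.14 to 0.083 for HNRNPA1L2 and -0.064 to 0.017 for HNRNPUL1 in NB4 cells. With the replicate block, 7 members fell in MOLM-13 cells (9.06% of all genes), 7 in NB4 cells (10.7%), and 1 differed between the lines (899 of 8849 genes). Of the MOLM-13 and NB4 same-number pairs, not every library correlated best with its own number. The cause of these changes was not tested.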

Other observations

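SR proteins are switched by kinases of the SRPK and CLK families. SRPK1 went from 52.3 ± 7.02 to 36.0 ± 1.87 RPKM in NB4 cells and fell (log2 fold change -0.53, adjusted p = 0.00192), and in MOLM-13 cells it went from 15.5 ± 4.91 to 8.89 ± 2.73 (-0.79, adjusted p = 0.0727). CLK1 rose in NB4 cells, from 24.2 ± 3.00 to 34.4 ± 1.00 RPKM (0.51, adjusted p = 0.00173), and in MOLM-13 cells it went from 79.9 ± 11.7 to 70.2 ± 1.87 (-0.18, adjusted p = 0.394). SRPK3, at a low level, fell in MOLM-13 cells, from 2.18 ± 0.472 to 1.18 ± 0.237 RPKM (-0.83, adjusted p = 0.0309). In all, 1 of 9 kinases fell in MOLM-13 cells (9.04% of all genes). NB4 cells had 1 of 8 that fell (10.7% of all genes) and 1 that rose (18.6% of all genes), each a single gene. Each of these calls was lost in some fits that left out 1 library: SRPK1 without DMSO replicate 1 (-0.48), DMSO replicate 3 (-0.46) or FP54 replicate 1 (-0.49), CLK1 without DMSO replicate 2 (0.41) or FP54 replicate 1 (0.50), and SRPK3 without DMSO replicate 3 (-0.67), FP54 replicate 2 (-0.71) or FP54 replicate 3 (-0.80).

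The nuclear import receptors of SR and hnRNP proteins (TNPO1, TNPO2 and TNPO3) had 0 of 3 genes past the cutoff in either line, with medians of -0.08 and -0.10. Of 10 nonsense-mediated decay factors, which degrade the splice forms with premature stops that many splicing factor genes make, 0 passed in either line, with medians of -0.03 in MOLM-13 and -0.02 in NB4 cells. The nuclear m6A reader YTHDC1, which is known to recruit SRSF3, was at 22.8 ± 4.00 RPKM with DMSO and 24.1 ± 3.29 with FP54 in MOLM-13 cells, and at 16.1 ± 0.627 and 13.6 ± 0.695 in NB4 cells (log2 fold change -0.25, adjusted p = 0.0332, under the minimum fold). Silent genes were not at the same level in all NB4 libraries, as the mean of 400 olfactory receptor genes was 0.0018 to 0.0039 RPKM with DMSO and 0.051 to 0.054 with FP54.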
